A study of Homo sapiens with 9 samples.

Results

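The response of WM3248, a human melanoma cell line, to the lower of the doses of ARN22089 given to it was measured by RNA sequencing at 24 h. The 6 libraries used, of 9 in the series, are 3 labelled untreated (DMSO), called vehicle or 0 µM here, and 3 treated with ARN22089 at 4 µM. They were taken by their titles, and the 3 libraries at 6 µM entered the fit to share its estimate of the spread. All cells were 1 established line with no further genotype in the labels, seeded a day before treatment in a medium with low serum and added insulin, lysed on the plate, and sequenced after poly-A enrichment. The labels do not say whether libraries of 1 dose came from separate cultures, so each p-value speaks to how far these libraries scatter, and that scatter may be technical.

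ARN22089 was designed to block the binding of the CDC42 family of small GTPases, which includes RHOJ and RHOQ, to their effectors. These GTPases switch between a GDP-bound and a GTP-bound form. In the latter they recruit effectors such as the PAK kinases, which act on the actin cytoskeleton, cell polarity and growth signalling. In melanoma cells the same processes stand beside a pigment cell programme that is driven by MITF and SOX10 and marked by enzymes such as TYR and DCT.

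Levels are summed FPKM, fragments scaled to transcript length and library size, added over all assembled transcripts that carry the name of a gene. Differences are those of log2(FPKM + 1), 4 µM minus vehicle, with the SE of the fit. Each library had been assembled on its own, so a gene is listed at 0 where no transcript of it was assembled, and its level also depends on how long the assembled transcript is. For that reason 2 further values are given where they bear on a result. The consensus exon value averages FPKM per base, from transcripts of any name, over a fixed set of the gene's exonic bases. The set holds bases found in at least 50% of the libraries in which a transcript named for that gene was assembled. SPHK2, LINC01705, POFUT4 and IMMP1L, described below, had no such transcript in vehicle, so treated libraries alone set their bases. TMEM198B, LTB4R and LTB4R2 had no such transcript at 4 µM, so their bases were set without the 4 µM libraries. For all these genes the consensus exon value is not an independent check. FPKM times length is, in proportion, the number of fragments given to a gene's transcripts.

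The vehicle libraries held 27610, 28121 and 29625 assembled transcripts and those at 4 µM 27138, 28108 and 26506. Spliced transcripts numbered 21467 to 22215 in vehicle and 20696 to 21384 at 4 µM, and named genes 12323 to 12540 and 11946 to 12282. Transcripts that joined the introns of 2 protein-coding genes numbered 81, 81 and 83 in vehicle and 68, 65 and 57 at 4 µM. Each of these 3 properties was lower in all 3 treated libraries (exact permutation test over 6 libraries, two-sided p = 0.1, the smallest this design allows, 0.233 after adjustment over 7 properties). Counting only transcripts of at least 1 FPKM, the mean difference went from -706 to -114 for spliced transcripts and from -301 to -89.7 for named genes. The same permutation test then gave unadjusted p = 0.5 and 0.6. For joined transcripts the difference stayed at -18.3. Depth in reads is unknown. The coverage per FPKM that the assemblies record, relative to the median library, was 0.948, 0.974 and 1.3 in vehicle and 1, 0.979 and 0.802 at 4 µM. Vehicle replicate 1 stood apart: its correlation with the other vehicle libraries across genes was 0.887 and 0.891, against 0.912 to 0.921 for the other pairs of 1 dose. Of 129 genes named here that were above 0 in both groups, the difference turned sign in 4 and moved by over 1.5 times in 20 more without it, against 12 in all without vehicle replicate 3 and 6 without replicate 2. How the level was computed also mattered: the same count in all was 30 with the consensus exon value and 35 for FPKM times length. List medians that move by over 1.5 times without 1 library of the 6 are given with those values or their range. All 10 of 10 melanocytic markers were assembled, with a summed level of 807 to 1737 FPKM in vehicle and 1434 to 2529.5 at 4 µM. Of 10 leukocyte markers 9 were at 0 in all 6 libraries, PTPRC and CD14 among them, and of 8 endothelial markers 6, including PECAM1 and VWF. Of 10 keratinocyte markers 5 were at 0, KRT5 and TP63 among them, and the list summed to 74.2 to 101 FPKM in vehicle and 75.3 to 79.3 at 4 µM. All 10 fibroblast markers were assembled, COL1A2, LUM, FAP, THY1 and POSTN at 10 FPKM or more in at least 1 library, with sums of 64.7 to 231 FPKM in vehicle and 163 to 188 at 4 µM. The part of other cells in the results was not tested.

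At 4 µM, 8 of 12168 genes tested passed an adjusted p of 0.05 (limma with Benjamini-Hochberg adjustment, 0.0657% of genes). Of these, TNFRSF14, SPHK2, LINC01705, ZNF557, NEK6, POFUT4 and IMMP1L rose and TMEM198B fell with the summed value. NEK6 and POFUT4 turned direction with another value, as described with each. With only the 6 libraries at 0 and 4 µM in the fit 10 genes passed, of which SPHK2, POFUT4 and TMEM198B are 3 of these 8. The other 5 then had adjusted p-values of 0.0749 to 0.128. At an unadjusted p under 0.05, 6.24% of genes were higher and 4.65% lower. Over all genes the median difference was -0.00, with 49.4% of genes above 0 and 50.3% below.

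TNFRSF14, a receptor of the TNF receptor family that binds the ligand LIGHT and the inhibitory receptor BTLA, lies at chr1:2555639-2565382 (GRCh38, plus strand). Its summed level was 13.3, 23.8 and 19.5 FPKM in the vehicle libraries and 70.2, 74.9 and 63.2 FPKM at 4 µM. The lowest treated library was above the highest vehicle library by more than the whole range of either group. The mean rose from 18.9 ± 5.27 to 69.4 ± 5.91 FPKM (SD, n = 3), a difference of 1.86 ± 0.2 (SE, limma adjusted p = 0.0192). The consensus exon value gave 1.85 (adjusted p = 0.0301), and so did FPKM times length (adjusted p = 0.0266), but with only the 6 libraries at 0 and 4 µM in the fit the adjusted p was 0.11. Of the 8 genes, TNFRSF14, SPHK2 and TMEM198B passed with all 3 values.

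**Figure D1:**
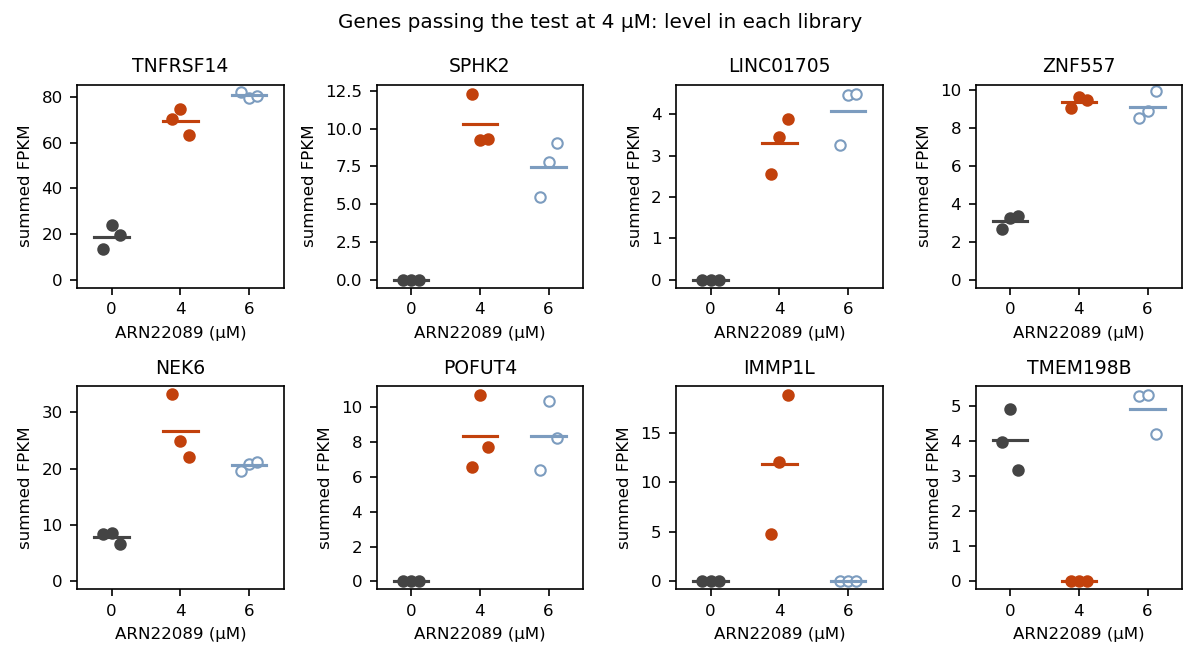
Summed FPKM (vertical axes) of the 8 genes that passed the test, in each library at 0, 4 and 6 µM ARN22089 (horizontal axes). Points are libraries and bars the mean of 3. SPHK2, LINC01705, POFUT4 and IMMP1L are listed at 0 in the 3 vehicle libraries and TMEM198B in the 3 libraries at 4 µM.

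SPHK2, a kinase that makes sphingosine 1-phosphate (chr19:48619291-48630717, plus strand), was listed at 0 in all 3 vehicle libraries and at 12.3, 9.22 and 9.3 FPKM at 4 µM. It had the smallest adjusted p of all genes, 0.00138 by limma, and 0.000265 with the consensus exon value. That value was 0, 0.161 and 0 in vehicle and 9.07, 6.84 and 7.52 at 4 µM. In vehicle libraries hardly any assembled transcript, of whatever name or strand, lay on the exons that treated libraries gave SPHK2. SPHK2 passed in 31 of 31 alternatives that gave it a value, among them each in which 1 library was left out. With 0 treated as missing it had no value. Its zeros in vehicle add no spread to the summed fits, so these alternatives are not independent checks. SPHK2 lies beside RPL18, a highly expressed ribosomal protein gene on the opposite strand. Transcripts of opposite-strand genes at the locus summed to 829, 771 and 738 FPKM in vehicle and to 777, 859 and 10.8 FPKM at 4 µM, where replicate 3 had DBP alone. DBP, also on that strand, was assembled there in 1 vehicle library and in all 3 treated ones. The part of these neighbours in the value of SPHK2 was not tested. No fold is given for genes listed at 0 in 1 group, and their fitted difference depends on the added 1.

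LINC01705, a long noncoding RNA gene (chr1:222010825-222064773, minus strand), was at 0 in vehicle and at 2.56, 3.45 and 3.9 FPKM at 4 µM (limma adjusted p = 0.0227, or 0.0238 by consensus exons). These are low levels, from 1 assembled transcript in each treated library. Unnamed single-exon transcripts at the same locus summed to 1.15, 1.82 and 2.4 FPKM in vehicle and 7.35, 12.3 and 6.27 at 4 µM. For FPKM times length the adjusted p was 0.166.

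For ZNF557 and NEK6 the assembled transcripts of the 2 groups differed in length. ZNF557, a zinc finger gene (chr19:7069703-7087968, plus strand), was at 2.69, 3.27 and 3.36 FPKM in vehicle and at 9.01, 9.63 and 9.48 FPKM at 4 µM. The difference was 1.34 ± 0.14 (SE, limma adjusted p = 0.0192), and consensus exons gave 1.37 (adjusted p = 0.00942). Its transcripts had a mean length, weighted by FPKM, of 4116, 4213 and 4317 bases in vehicle and of 1541, 1440.2 and 1479.7 bases at 4 µM. For FPKM times length, the ZNF557 difference was 0.09 (adjusted p = 0.797).

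NEK6, a kinase of mitotic spindle formation (chr9:124257606-124353307, plus strand), was at 8.38, 8.56 and 6.64 FPKM in vehicle and at 33.3, 24.8 and 22.1 FPKM at 4 µM. Its difference was 1.63 ± 0.17 (SE, limma adjusted p = 0.0192). In vehicle it was 1 transcript of 9336, 9497 and 9231 bases, whereas at 4 µM it was assembled as 2 or 3 pieces with weighted mean lengths of 2368, 1051 and 1069 bases. The consensus exon value gave 0.32 (adjusted p = 0.579), and -0.98 resulted for FPKM times length (adjusted p = 0.369). NEK6 thus passed with the summed value and turned direction with FPKM times length.

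The remaining 3 genes also share their locus with a neighbour. POFUT4, a protein O-fucosyltransferase gene (chr10:73772276-73780251, plus strand), was at 0 in vehicle and at 6.6, 10.7 and 7.7 FPKM at 4 µM (limma adjusted p = 0.0026). In vehicle its exons lay in transcripts named for SEC24C, the adjacent gene on the same strand, at 17.8, 15.6 and 20.7 FPKM. With the consensus exon value POFUT4 was at 17.7, 15.6 and 10.5 in vehicle and at 6.51, 5.79 and 7.67 at 4 µM, a difference of -1.0 (adjusted p = 0.153). IMMP1L, a subunit of the inner mitochondrial membrane peptidase (chr11:31432401-31509645, minus strand), was at 0 in vehicle and at 4.77, 12.1 and 18.8 FPKM at 4 µM (adjusted p = 0.0373, and 0.139 with the consensus exon value). It overlaps DNAJC24 on the opposite strand, which was assembled in all 6 libraries at 4.06 to 8.65 FPKM.

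TMEM198B, a transcribed pseudogene (chr12:55829608-55836253, plus strand), was the 1 gene that fell, from 3.97, 4.94 and 3.19 FPKM in vehicle to 0 in all 3 libraries at 4 µM (limma adjusted p = 0.0143). With the consensus exon value, which takes in transcripts of its opposite-strand neighbour DNAJC14, it was at 3.29, 3.38 and 2.44 in vehicle and at 0.281, 0.525 and 0.403 at 4 µM (adjusted p = 0.0238). At 6 µM it was again assembled, at 5.29, 5.32 and 4.21 FPKM.

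**Figure D2:**
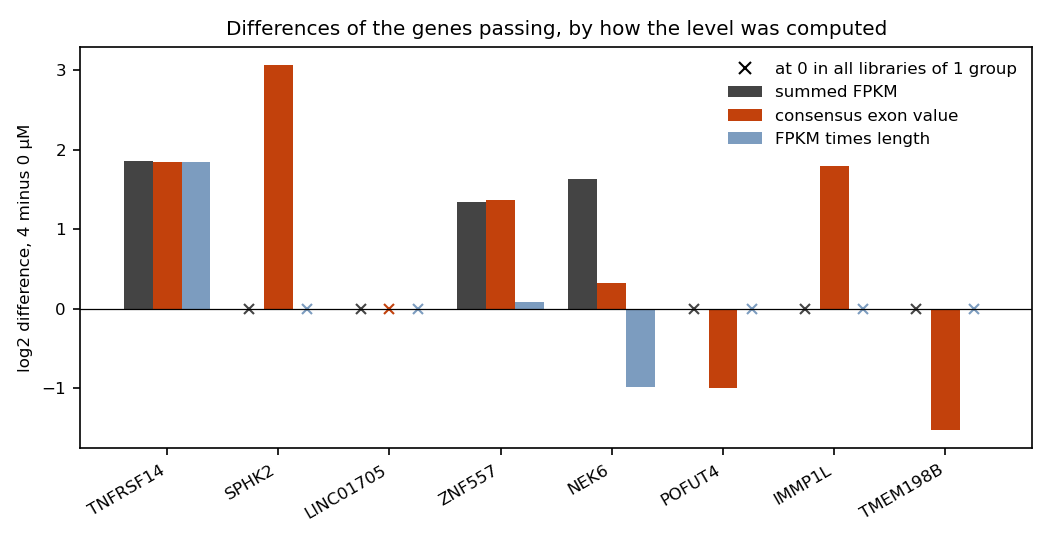
Log2 differences (vertical axis, 4 µM minus vehicle) of the 8 genes that passed with the summed value, as bars from 0, or crosses without a bar where 1 group is at 0 in all 3 libraries, computed from summed FPKM, from the consensus exon value and from FPKM times length. The 3 values nearly coincide for TNFRSF14 (1.86, 1.85 and 1.85), and the sign differs between values for NEK6. POFUT4, which rose with the summed value, has a consensus exon bar below 0.

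With the consensus exon value 7 of 12189 genes passed (0.0574%), of which 4 rose and 3 fell, LTB4R and LTB4R2 among the latter. These 2 neighbours had 1 named transcript in each vehicle library. It was named for LTB4R2 in replicates 1 and 2 (2.73 and 3.36 FPKM) and for LTB4R in replicate 3 (0.473 FPKM). The 2 calls may therefore share their transcripts. No transcript of either name was assembled at 4 µM, so their exon bases, like those of TMEM198B, were set without the 4 µM libraries. With FPKM times length 11 of 12360 genes passed (0.089%), 3 up and 8 down. With the summed value 23 genes passed without vehicle replicate 1 and 22 without vehicle replicate 2, and 4 without replicate 1 at 6 µM. Of the 8 genes, 7, 7 and 3 were among those. SPHK2, POFUT4 and TMEM198B passed with any 1 of the 9 libraries left out. Each of them is listed at 0 in all libraries of 1 group, which therefore adds no spread to these fits. TNFRSF14 passed in 4 of 9 such fits and had a limma adjusted p of 0.0503 to 0.0793 without vehicle replicate 3, without any 1 library at 4 µM or without replicate 1 at 6 µM. ZNF557 missed the threshold without any 1 library at 4 µM or replicate 1 at 6 µM (0.0504 to 0.0762), and NEK6 without vehicle replicate 3 (0.0503), replicate 2 at 4 µM (0.0729) or replicate 1 at 6 µM (0.0554). LINC01705 missed it without vehicle replicate 3 (0.0503), replicate 2 or 3 at 4 µM (0.0876 and 0.0623) or replicate 1 at 6 µM (0.0504). IMMP1L passed in 1 of 9, without replicate 1 at 4 µM (0.00582).

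Genes of sterol synthesis were higher at 4 µM, though none passed the adjusted test. The lists here and below were chosen with earlier results of these data known, and genes were left out of the sterol lists, so their counts are descriptions only. The mevalonate pathway turns acetyl-CoA into squalene and into the lipid anchors of small GTPases, CDC42 family members included. From squalene a second set of enzymes makes cholesterol. All 9 listed genes up to squalene had a higher level in each library at 4 µM than in any vehicle library, and so did 8 of 11 from squalene on, against 9.9% of all genes tested. The median differences were 0.77 and 0.65. On the TPM scale, where each library sums to the same total, the median of all genes was 0.31 and those of these lists 1.13 and 1.01. The largest single transcript took 8.21% to 21.4% of the FPKM sum in vehicle and 1.22% to 5.53% at 4 µM. List medians are therefore read against that of all genes.

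Early in the pathway, HMGCS1, a synthase, was at 59.3, 46.2 and 64.7 FPKM in vehicle and at 110.4, 82.2 and 99.6 FPKM at 4 µM (0.77, limma adjusted p = 0.273). The groups did not overlap. ACAT2, the first enzyme, had a difference of 0.77. MVK and PMVK, the kinases that act on mevalonate, had differences of 0.73 and 0.19.

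MVD, the decarboxylase that makes isopentenyl diphosphate, had the largest difference of those listed. Its level was 17.1, 26.3 and 29.6 FPKM in vehicle and 75.9, 56.5 and 47.8 FPKM at 4 µM (1.28 ± 0.25 SE, limma adjusted p = 0.264). IDI1, the isomerase of the next step, had a difference of 0.81. FDPS, which makes farnesyl diphosphate, was at 160.3, 229 and 249 FPKM in vehicle and at 448, 502 and 442 FPKM at 4 µM. The gap between the groups was wider than the range of either (1.14 ± 0.18 SE, adjusted p = 0.157). The branch to geranylgeranyl groups, the anchor of CDC42, begins at GGPS1, whose difference was 0.44, and the branch to squalene at FDFT1, with 0.78.

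From squalene on, SQLE, the epoxidase, was at 44.9, 74.8 and 85.2 FPKM in vehicle and at 116, 107 and 122 FPKM at 4 µM (0.79 ± 0.22 SE, limma adjusted p = 0.337). EBP, an isomerase late in the pathway, was at 52.1, 43.4 and 41.3 FPKM and then at 77.1, 80.5 and 78.7 FPKM (0.78, adjusted p = 0.264). DHCR7, the last reductase of 1 branch, was at 43.5, 69.6 and 63.2 FPKM and then at 129.9, 130 and 93.8 FPKM (1.0 ± 0.21 SE, adjusted p = 0.264). All 3 enzymes were outside the vehicle range in each treated library. The differences of LSS, CYP51A1, MSMO1, NSDHL and HSD17B7 lay between 0.38 and 0.77. Without vehicle replicate 1, the lowest library for SQLE, CYP51A1 and MSMO1, their differences were 0.52, 0.48 and 0.42. The consensus exon value gave 0.43 for CYP51A1, 1.13 for MSMO1, 1.06 for LSS and 0.76 for HSD17B7. The 3 members whose groups overlapped were TM7SF2 and LBR, both C14 sterol reductases, at -0.1 and -0.23, and SC5D, at -0.19 with 11.8, 39.1 and 42.9 FPKM in the 3 treated libraries. On the TPM scale these were 0.24, 0.11 and 0.15, each below the 0.31 of all genes, and the consensus exon value of TM7SF2 gave 0.55.

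**Figure D3:**
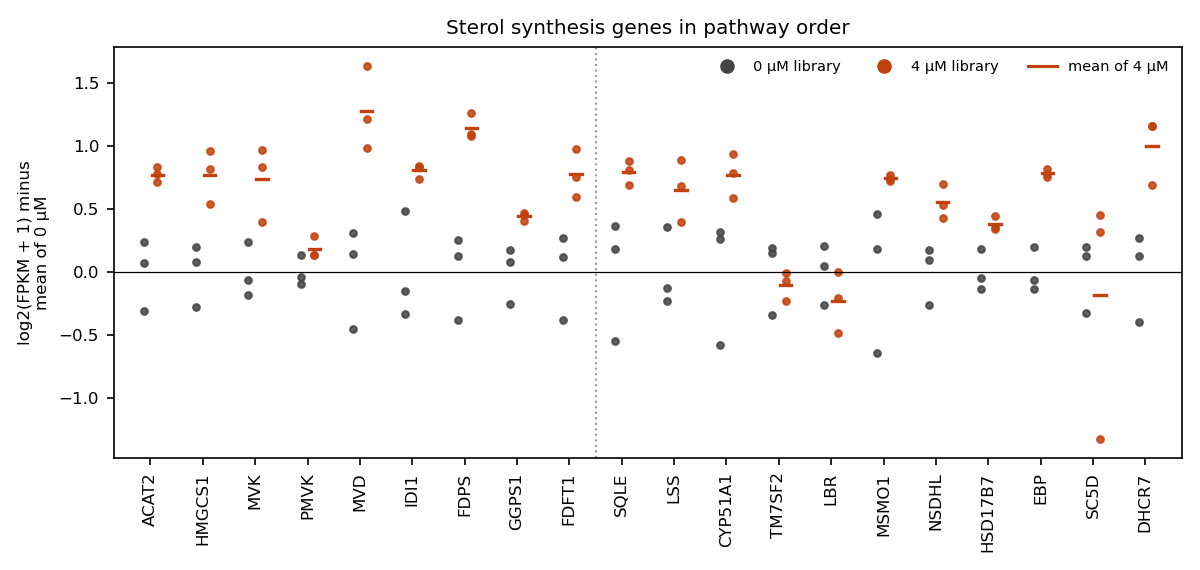
Log2(FPKM + 1) of each listed sterol synthesis gene minus its mean over the vehicle libraries (vertical axis), genes in pathway order with a dotted line at squalene (horizontal axis). Points are libraries and bars the mean of 3 at 4 µM. In 17 of 20 genes the 3 treated libraries sit above the 3 vehicle libraries.

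The low vehicle replicate 1 bears on these values. Its own list medians, against the vehicle mean, were -0.31 up to squalene and -0.33 beyond it, where replicates 2 and 3 had 0.08 and 0.24, and 0.18 and 0.17. Without it the median differences were 0.64 and 0.47. Still 9 of 9 and 8 of 11 genes had all treated libraries above both others, against 2061 of 12168 genes. Another 2 genes beyond squalene had them below, against 1706 of all genes. Of the genes that control sterol supply, INSIG1, the sterol sensor that retains the SREBP complex, was at 14.1, 24.9 and 24.7 FPKM in vehicle and at 47.7, 44.7 and 42.2 FPKM at 4 µM (1.09 ± 0.24 SE, limma adjusted p = 0.273). SCARB1, a lipoprotein receptor, was at 121, 217 and 218 FPKM and then at 309, 300.2 and 284 FPKM (0.73, adjusted p = 0.371), and TMEM97, a sterol-regulated membrane protein, at 24.6, 28.3 and 34.3 FPKM and then at 46.9, 38.8 and 42.4 FPKM. No groups overlapped for these 3 genes. Without vehicle replicate 1 the difference of SCARB1 was 0.45. SREBF2, the transcription factor of the pathway, had a difference of 0.03, but of 0.39 with the consensus exon value and 0.63 for FPKM times length. Over that list of 16 genes tested the median was 0.29 (0.17 to 0.41 with 1 library left out), and none passed. Of its genes 4 were above and 1 below all vehicle libraries, beside 9.9% and 8.46% of all genes. A sterol regulatory element was sought in the RefSeq promoters (GRCh38.p14) as TCACNCCAC on either strand. It was in 0 of 7 promoters up to squalene, 0 of 10 beyond it and 1 of 12 of the control list, that of SREBF2, against 1.11% of promoters of tested genes, which says only that these letters are not in those windows.

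Fatty acid synthesis, which shares that control, had a median of 0.39 over 19 genes. Of them 10 were above all vehicle libraries and none below, against 9.9% and 8.46% of all genes. None passed the adjusted test. ACACA, the committing carboxylase, was at 15.5, 19.4 and 26.9 FPKM in vehicle and at 33.6, 42.2 and 38.4 FPKM at 4 µM, and SCD, the desaturase, at 123, 214 and 196 FPKM and then at 366, 359 and 251 FPKM (limma adjusted p = 0.324 and 0.337). ACSL1, which activates long-chain fatty acids, was at 35.5, 46.8 and 50 FPKM and then at 69, 66.4 and 91.9 FPKM. None of these 3 pairs of groups overlapped, and the consensus exon difference of ACACA was 0.45 beside 0.88. Among 14 apolipoprotein and LXR target genes the median was 0.37, and none passed. Above all vehicle libraries were 3 of them, beside 9.9% of all genes. APOE, a lipid carrier protein, was at 8.78, 14.7 and 11.6 FPKM in vehicle and at 24.7, 29.9 and 21.2 FPKM at 4 µM (1.06 ± 0.2 SE, adjusted p = 0.26). APOC1, encoded beside it, was at 10.3, 11.8 and 10.9 FPKM and then at 26.5, 15.7 and 29.6 FPKM (1.01, adjusted p = 0.273). APOD, another lipid carrier, had a difference of 0.55 with overlapping groups.

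Genes of cell division were lower. Of 36 kinesin, central spindle and cytokinesis genes, all 36 had a negative difference, with a median of -0.64, and 26 were in each treated library below every vehicle library, against 8.46% of all genes tested. For mitotic entry kinases and cyclins the count was 18 of 27 (median -0.53), for kinetochore and spindle checkpoint genes 16 of 39 (-0.39), and for condensins and other mitotic chromosome genes 7 of 20 (-0.48). On the TPM scale the 4 medians were -0.30, -0.21, -0.14 and -0.13, against 0.31 for all genes. NEK6 was the 1 member of these lists that passed the adjusted test, in the other direction and with the limit given above.

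KIF20A, a kinesin of the central spindle, was at 39.6, 34.3 and 34.5 FPKM in vehicle and at 19.4, 19.5 and 24.1 FPKM at 4 µM (-0.76 ± 0.16 SE, limma adjusted p = 0.264). KIF11, the motor that separates the spindle poles, was at 25.6, 15 and 14.8 FPKM and then at 8.8, 7.78 and 10.6 FPKM (-0.92, adjusted p = 0.279). DEPDC1B, a regulator of RHOA and of cell detachment at mitosis, was at 26.3, 24.3 and 25.2 FPKM and then at 8.1, 6.56 and 10.5 FPKM. It had the largest difference of the list (-1.5 ± 0.23 SE, adjusted p = 0.123), though the consensus exon value gave -0.51 (adjusted p = 0.269).

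PLK1, a kinase of mitotic entry, was at 88.9, 63.7 and 73.3 FPKM in vehicle and at 45.4, 38.8 and 41.7 FPKM at 4 µM (-0.82 ± 0.19 SE, limma adjusted p = 0.273). AURKB, the kinase of the chromosomal passenger complex, was at 74.7, 78.9 and 60.4 FPKM and then at 43.3, 44 and 47.5 FPKM (-0.65, adjusted p = 0.29). NDC80, which ties kinetochores to microtubules, had a difference of -0.74. SPDL1, which brings dynein to kinetochores, had one of -0.89, or -0.58 with consensus exons. None of these groups overlapped. MAD1L1, a spindle checkpoint gene, was on the other side, at 28.1, 34.4 and 35 FPKM in vehicle and at 58.2, 50.3 and 44.9 FPKM at 4 µM (0.64, adjusted p = 0.275). MKI67, the Ki-67 proliferation marker, was at 30.6, 22.3 and 20.6 FPKM and then at 12.2, 12.2 and 15 FPKM (-0.84 ± 0.17 SE, adjusted p = 0.264). CDCA2, which recruits a phosphatase to mitotic chromosomes, was at 15.6, 11 and 11.4 FPKM and then at 6.3, 6.21 and 8.14 FPKM (-0.79, adjusted p = 0.273). NCAPD3, a condensin II subunit, had a difference of -1.35, or -0.86 with consensus exons, with vehicle replicate 2 far above the rest (33.5, 62.8 and 24.9 FPKM, then 11.6, 12.9 and 18.7 FPKM).

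**Figure D4:**
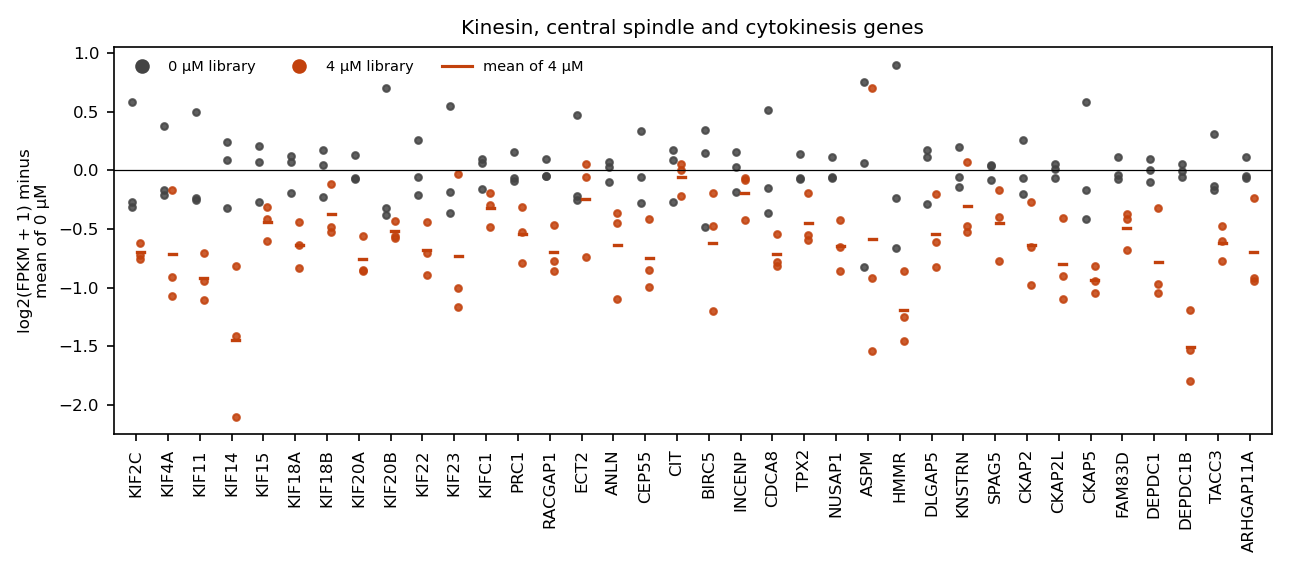
Log2(FPKM + 1) of each of 36 kinesin, central spindle and cytokinesis genes (horizontal axis) minus its mean over the vehicle libraries (vertical axis). Points are libraries and bars the mean of 3 at 4 µM. The mean at 4 µM is below 0 for all 36 genes, and in 26 no treated library reaches a vehicle library.

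Promoters of many mitotic genes carry a short element called CHR (cell cycle genes homology region), with the letters TTTGAA, through which complexes of LIN54 and its partners act. It was sought on both strands in RefSeq promoters (GRCh38.p14, 250 bases before to 50 after the start). Among members tested and present in that table, 25 of 32 kinesin and cytokinesis promoters (78.1%), 16 of 33 kinetochore promoters (48.5%) and 10 of 21 mitotic entry promoters (47.6%) held it. The share was 9.7% over the 9904 promoters of tested genes and 15.4% over all 27305. Of the promoters with a match, 3 of genes described above are shown with the element in capitals, which reads TTCAAA where it lies on the other strand: PLK1 (chr16:23678639-23678938, plus strand), KIF11 (chr10:92592880-92593179, plus strand) and DEPDC1B (chr5:60700117-60700416, minus strand).
PLK1: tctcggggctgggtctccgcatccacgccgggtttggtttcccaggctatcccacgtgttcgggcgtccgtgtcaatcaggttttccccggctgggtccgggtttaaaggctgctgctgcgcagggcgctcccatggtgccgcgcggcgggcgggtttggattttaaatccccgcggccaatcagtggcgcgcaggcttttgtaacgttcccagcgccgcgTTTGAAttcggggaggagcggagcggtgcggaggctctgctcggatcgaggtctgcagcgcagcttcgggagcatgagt
KIF11: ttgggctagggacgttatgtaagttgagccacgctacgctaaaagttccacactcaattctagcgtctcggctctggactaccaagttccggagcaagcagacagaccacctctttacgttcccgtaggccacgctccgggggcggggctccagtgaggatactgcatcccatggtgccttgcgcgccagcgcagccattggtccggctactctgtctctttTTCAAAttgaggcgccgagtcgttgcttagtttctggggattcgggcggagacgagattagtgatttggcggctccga
DEPDC1B: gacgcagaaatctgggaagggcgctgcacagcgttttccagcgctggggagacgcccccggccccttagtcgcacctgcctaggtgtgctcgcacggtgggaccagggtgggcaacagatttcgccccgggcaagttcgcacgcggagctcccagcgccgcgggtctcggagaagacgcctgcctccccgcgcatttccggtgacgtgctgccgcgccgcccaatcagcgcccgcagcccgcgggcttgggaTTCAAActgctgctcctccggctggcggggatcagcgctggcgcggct
Counted from the annotated start, the match began at -29 in PLK1, at -28 in KIF11 and at 3 in DEPDC1B. A match describes letters only.

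Genes of DNA replication and repair were lower as well, though none passed the adjusted test. All 13 genes of the MCM helicase, CDC45 and GINS had a negative difference, median -0.47 (-0.56 to -0.31 with 1 library left out), with 7 below all vehicle libraries, where 8.46% of all genes lay. Of 42 origin licensing and fork genes 40 were negative, median -0.38, with 15 below, and of 28 Fanconi and homologous recombination genes 24, median -0.35, with 13 below and 1 above. MCM4, a helicase subunit, was at 78.4, 55.7 and 62.4 FPKM in vehicle and at 30.4, 34.6 and 48.4 FPKM at 4 µM (-0.79 ± 0.27 SE, limma adjusted p = 0.389). CLSPN, which links stalled forks to the checkpoint kinase, was at 9.28, 6.46 and 13.7 FPKM and then at 2.83, 3.48 and 5.51 FPKM (-1.11, adjusted p = 0.302). MCM7, another helicase subunit, had a difference of -0.41, and GINS4, of the same replication helicase, one of -0.56. RFC5, a clamp loader subunit, was at 25.7, 36.8 and 35.6 FPKM and then at 15.7, 18.6 and 23.7 FPKM (-0.73, adjusted p = 0.324, and -0.25 with consensus exons). POLA2, of the primase complex, had a difference of -0.82, or -0.52 with consensus exons. The repair genes RBBP8, which starts end resection, USP1, a deubiquitinase of the Fanconi pathway, and BARD1, the partner of BRCA1, had differences of -0.56, -0.68 and -0.58. The groups overlapped for none of these 9 genes. On the TPM scale the 3 list medians were -0.13, -0.06 and -0.03, again against 0.31 for all genes.

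An E2F-like element, TTTCCCGC or TTTGGCGC on either strand, was held by 7 of 10 promoters of the MCM, CDC45 and GINS list (70%) and by 12 of 38 of the origin and fork list (31.6%), against 3.75% of promoters of tested genes. E2F factors drive genes of DNA synthesis at the start of S phase. The promoters of CLSPN (chr1:35769929-35770228, minus strand) and MCM7 (chr7:100101348-100101647, minus strand) are shown with the match in capitals, here on the other strand, starting at -5 and -187.
CLSPN: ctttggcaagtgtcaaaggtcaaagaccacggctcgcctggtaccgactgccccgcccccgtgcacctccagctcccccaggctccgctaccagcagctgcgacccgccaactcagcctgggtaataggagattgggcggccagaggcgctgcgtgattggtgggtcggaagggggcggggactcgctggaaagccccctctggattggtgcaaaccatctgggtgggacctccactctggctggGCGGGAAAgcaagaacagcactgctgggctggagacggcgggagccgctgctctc
MCM7: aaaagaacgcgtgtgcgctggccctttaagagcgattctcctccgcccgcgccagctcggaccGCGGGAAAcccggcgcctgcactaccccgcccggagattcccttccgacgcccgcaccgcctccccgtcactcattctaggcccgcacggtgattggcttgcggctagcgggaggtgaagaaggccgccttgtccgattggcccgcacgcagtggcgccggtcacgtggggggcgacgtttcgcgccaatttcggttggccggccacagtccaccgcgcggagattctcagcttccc

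Upstream of replication, CCNE2, a cyclin of the G1 to S step, was at 36.3, 13.6 and 36 FPKM in vehicle and at 5.59, 7.77 and 9.54 FPKM at 4 µM (-1.68 ± 0.52 SE, limma adjusted p = 0.371). The CCNE2 difference was -0.89 with the consensus exon value and -0.97 for FPKM times length. CCND1, the cyclin of early G1, was at 64.9, 82.3 and 86.8 FPKM and then at 48.5, 54.8 and 64.2 FPKM (-0.47, adjusted p = 0.444). Neither pair of groups overlapped. RBL1, a relative of the retinoblastoma protein, was at 6.21, 6.31 and 6.03 FPKM and then at 3.2, 4.13 and 4.73 FPKM (-0.53, adjusted p = 0.388). CDKN1B, the p27 inhibitor, was on the other side, at 15.5, 13.8 and 11.9 FPKM and then at 26.3, 16.1 and 17.9 FPKM (0.5, adjusted p = 0.432). Its consensus exon difference was 0.32. In the G1 list of 16 genes, 2 were above and 5 below all vehicle libraries, beside 9.9% and 8.46% of all genes. The median was -0.34 (-0.00 on the TPM scale). It was -0.14 without vehicle replicate 1 and -0.18 without replicate 2 at 4 µM. CDKN1A, the p21 inhibitor, was at 99, 101 and 100.1 FPKM and then at 95.8, 94.9 and 109.9 FPKM, a difference of -0.00 ± 0.16 (SE) that was 0.35 on the TPM scale, beside 0.31 for all genes. Over 24 p53 target genes the median was -0.13 (0.19 on the TPM scale), from -0.22 to -0.04 with 1 library left out. Of them 1 was above and 2 below all vehicle libraries, no more than the shares of all genes (9.9% and 8.46%). No gene of the G1 or p53 lists passed. Of these, GDF15, a stress cytokine, was at 15.8, 37.8 and 23.5 FPKM in vehicle and at 87.6, 88.8 and 51.8 FPKM at 4 µM (1.57 ± 0.36 SE, adjusted p = 0.273). The 2 members below were RRM2B, a ribonucleotide reductase subunit, and RPS27L, a ribosomal protein paralog, with differences of -0.45 and -0.33, the latter 0.02 on the TPM scale.

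The 3 libraries at 4 µM were not alike in these lists. Against the vehicle mean, the list median of the kinesin genes was -0.75, -0.82 and -0.39 in replicates 1, 2 and 3, and that of the MCM, CDC45 and GINS genes -0.66, -0.49 and -0.23. Replicate 3, the library of lowest relative depth, lay nearest to vehicle in the 4 division lists, the 2 replication lists and the Fanconi list. The vehicle libraries lay between -0.09 and 0.09 in these lists. The part of depth in this was not tested.

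Genes of melanin synthesis were higher, though no gene of this or the other pigment cell lists passed the adjusted test. Of 12 melanin synthesis and melanosome matrix genes tested, 10 had a positive difference, median 0.77, and 8 were above all vehicle libraries, against 9.9% of all genes. DCT, which converts dopachrome, was at 55.3, 141 and 77.4 FPKM in vehicle and at 246, 281 and 258 FPKM at 4 µM (1.61 ± 0.33 SE, limma adjusted p = 0.264). TYR, which starts melanin synthesis as its rate-limiting step, was at 5.18, 11 and 6.49 FPKM and then at 21.1, 16.3 and 11.7 FPKM (1.04, adjusted p = 0.394). PMEL, the fibril protein of melanosomes, was at 3.04, 7.31 and 7.02 FPKM and then at 9.2, 12.8 and 9.57 FPKM, and MLANA at 2.55, 1.81 and 0 FPKM and then at 7.69, 4.55 and 3.54 FPKM.

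Groups did not overlap for these 4 genes. GPNMB, a melanosome glycoprotein, was at 297, 572 and 358 FPKM in vehicle and at 778, 744 and 540.3 FPKM at 4 µM, with replicate 3 inside the vehicle range. In the list as a whole vehicle replicate 2 was the highest vehicle library, at 0.38 against the vehicle mean, and replicate 1 the lowest, at -0.27. Without replicate 1 the median was 0.58, and the difference of PMEL was 0.48 in place of 0.82. The factors that drive these genes were closer to vehicle: MITF was at 8.15, 14.7 and 17.7 FPKM and then at 14.8, 13.3 and 18 FPKM (0.23 ± 0.25 SE), and SOX10 at 103, 131 and 141 FPKM and then at 160, 144 and 146 FPKM (0.27 ± 0.15 SE). Without vehicle replicate 1 the differences of MITF and SOX10 were -0.07 and 0.14. SLC45A2, a melanosome transporter, was at 0.966, 1.41 and 1.5 FPKM and then at 2.29, 4.26 and 2.35 FPKM. Over 27 melanosome biogenesis and transport genes the median was 0.20 (0.10 without vehicle replicate 1 or without replicate 1 at 4 µM), with 4 above and 1 below, beside 9.9% and 8.46% of all genes. RAB32, a GTPase that carries melanogenic enzymes to melanosomes, was at 32.8, 36 and 31 FPKM and then at 52.8, 61.5 and 59 FPKM (0.78 ± 0.18 SE, limma adjusted p = 0.273). RAB38, its close relative, was at 39.8, 43.6 and 57.9 FPKM and then at 68.6, 67.6 and 84.6 FPKM (0.64, adjusted p = 0.293). DTNBP1, a BLOC-1 subunit, had a difference of 0.3. The groups of these 4 genes did not overlap.

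Among 16 lineage regulators the median was 0.28, and 0.03 without vehicle replicate 1. Of them 2 were above and 1 below all vehicle libraries, beside 9.9% and 8.46% of all genes. SNAI2, a factor of neural crest cells, was at 8, 12.4 and 11.4 FPKM in vehicle and at 22.5, 16.8 and 22.5 FPKM at 4 µM (0.9 ± 0.2 SE, limma adjusted p = 0.273). TFAP2A, a partner of MITF, had a difference of 0.98, and ETV1, an ETS factor, one of -0.85 (-0.37 with consensus exons), both with overlapping groups. An element that MITF and its relatives bind, TCACGTGA or TCATGTGA on either strand, was in 3 of 9 melanin list promoters (33.3%) and 9 of 27 lysosomal ones (33.3%), against 2.94% of promoters of tested genes. That of GPNMB (chr7:23246525-23246824, plus strand) is shown, with the match in capitals on the other strand, starting at -63.
GPNMB: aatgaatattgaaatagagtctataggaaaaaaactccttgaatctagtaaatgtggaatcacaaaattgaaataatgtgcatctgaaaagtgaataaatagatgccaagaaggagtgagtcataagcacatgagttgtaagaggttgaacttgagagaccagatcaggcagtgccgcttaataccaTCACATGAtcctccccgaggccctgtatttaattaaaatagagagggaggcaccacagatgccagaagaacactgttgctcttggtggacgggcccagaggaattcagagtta

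Genes of melanoma receptor kinases and of the dedifferentiated state had a median of -0.17 over 18 genes. On the TPM scale it was 0.17, against 0.31 for all genes. No gene passed, and 4 were below all vehicle libraries and none above, beside 8.46% and 9.9% of all genes. With 1 library left out the median ran from -0.25 to -0.07. AXL, a receptor kinase of that state, was at 29, 14.6 and 18 FPKM in vehicle and at 8.63, 9.39 and 10.8 FPKM at 4 µM (-0.97 ± 0.25 SE, limma adjusted p = 0.293). MET, the hepatocyte growth factor receptor, was at 42.1, 4.34 and 11.6 FPKM and then at 1.89, 2.97 and 3.95 FPKM (-1.89 ± 0.65 SE, adjusted p = 0.389). The groups did not overlap, and vehicle replicate 1 was the highest library for both. Without it the differences were -0.70 for AXL and -1.09 for MET. With the consensus exon value and all libraries they were -0.90 and -1.20. FGFR1, a receptor of fibroblast growth factors, was at 17.6, 10.4 and 13.8 FPKM and then at 7.26, 8.12 and 8.53 FPKM (-0.71, adjusted p = 0.302).

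The genes of the family against which the compound was designed did not separate the groups. CDC42 was at 117, 111 and 122 FPKM in vehicle and at 111, 106 and 117 FPKM at 4 µM (-0.07 ± 0.11 SE, limma adjusted p = 0.843). RHOJ was at 10.1, 35.9 and 23 FPKM and then at 15.9, 23.2 and 17.5 FPKM, the treated libraries lying inside the wide vehicle range (-0.12 ± 0.38 SE, and 0.25 with the consensus exon value). On the TPM scale CDC42 was at 0.28 and RHOJ at 0.22, below the 0.31 of all genes. Over 8 GTPases of the family the median was -0.05 (0.30 on the TPM scale, and -0.05 to 0.04 with 1 library left out). None was outside the vehicle range in all treated libraries, beside 9.9% of all genes above it and 8.46% below. RHOQ was at 22.9, 25.8 and 26.9 FPKM and then at 22.2, 34 and 25.1 FPKM. The smallest p-values of the list were those of RHOB, RHOC and RND3, with differences of 0.58, -0.25 (0.10 on the TPM scale) and 0.22 and overlapping groups. Over 26 PAK kinases and other effectors the median was -0.03 (-0.08 to 0.07 with 1 library left out, and 0.31 on the TPM scale). There 1 gene was above and 2 below all vehicle libraries, no more than the shares of all genes (9.9% and 8.46%). PAK2 had a difference of -0.16 ± 0.37 (SE) and PAK4 of -0.03 ± 0.27 (SE), both with overlapping groups and at 0.18 and 0.32 on the TPM scale.

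The 2 effectors below were PAK1 and IQGAP1. PAK1, a kinase that GTP-bound CDC42 and RAC1 activate, was at 21.9, 17.7 and 16.2 FPKM in vehicle and at 11.3, 12.8 and 12.7 FPKM at 4 µM (-0.55 ± 0.14 SE, limma adjusted p = 0.291, and -0.41 with the consensus exon value). IQGAP1, an actin scaffold that binds CDC42, was at 123, 56.8 and 51.5 FPKM and then at 24.4, 20.3 and 27.6 FPKM (-1.54, adjusted p = 0.273), but its consensus exon difference was -0.40 (adjusted p = 0.28). Vehicle replicate 1 was its highest library, and without it the difference was -1.15. The 1 effector above was MAP3K11, a mixed lineage kinase, with a difference of 0.59, or 0.38 with consensus exons. Actin filament genes and SRF targets had a median of -0.02 over 26 genes (0.32 on the TPM scale, and -0.08 to 0.04 with 1 library left out). Of them 2 were above all vehicle libraries, beside 9.9% of all genes, and 2 below, beside 8.46%. The latter were ACTN4, an actin crosslinker, at 237, 209 and 242 FPKM in vehicle and at 181, 173 and 173 FPKM at 4 µM, and VCL, the vinculin of cell adhesions, at 39.2, 18.9 and 17.2 FPKM and then at 13.5, 13.1 and 16 FPKM. The difference of VCL was -0.69, or -0.33 without vehicle replicate 1 and -0.36 with consensus exons. No gene of the GTPase, effector or actin lists passed. TGFB1I1, an adhesion adaptor, had a difference of 0.49 with overlapping groups.

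Of 24 targets of YAP, TAZ and TEAD, which respond to actin tension, none passed. All treated libraries were below all vehicle libraries in 7 and above in 2, beside 8.46% and 9.9% of all genes. The median was -0.39 (-0.07 on the TPM scale, against 0.31 for all genes). Without vehicle replicate 3 it was -0.26. Without vehicle replicate 1 it was -0.46, with 14 below, against 1706 of 12168 genes. CCN1, a matrix protein and common reporter of that output, was at 32.3, 28 and 21.1 FPKM in vehicle and at 13.8, 17.4 and 12.3 FPKM at 4 µM (-0.85 ± 0.27 SE, limma adjusted p = 0.381). CCN2, its relative, was at 29.8, 60 and 42.3 FPKM and then at 9.22, 30.3 and 20.8 FPKM, with overlapping groups (-1.18 ± 0.52 SE, adjusted p = 0.457). AXL is also on this list, and so is AMOTL1, an angiomotin that binds YAP, with a difference of -0.5 that was -0.01 with consensus exons.

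Of 24 NF-kB targets none passed the adjusted test. Of them 16 had a positive difference, median 0.18, and 4 were above all vehicle libraries and none below, where 9.9% and 8.46% of all genes lay. The median was 0.11 without vehicle replicate 1, 0.06 without vehicle replicate 2 and 0.29 without replicate 3 at 4 µM. NFKBIA, the inhibitor that NF-kB induces against itself, was at 21.4, 12.4 and 14.8 FPKM in vehicle and at 89.1, 51.4 and 30.5 FPKM at 4 µM (1.66 ± 0.36 SE, limma adjusted p = 0.273). TNFAIP3, the A20 feedback enzyme, was at 2.92, 3.44 and 3.45 FPKM and then at 8.91, 6.58 and 6.46 FPKM (0.95 ± 0.18 SE, adjusted p = 0.264). NFKBIE, a second inhibitor of the family, was at 9.17, 10.3 and 6.54 FPKM and then at 24.3, 19.3 and 13.4 FPKM (1.03 ± 0.24 SE, adjusted p = 0.273). None of the 3 pairs overlapped, while the list medians of the treated libraries were 0.51, 0.15 and -0.01, replicate 3 lying at the vehicle mean. Over 9 TNF receptor family genes tested the median was -0.09 (0.26 on the TPM scale, and -0.21 to 0.14 with 1 library left out). Only TNFRSF14 passed among them, and TNFRSF19 and EDA2R, next by p, had differences of 0.51 and -0.71 (0.82 and -0.39 with consensus exons).

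No gene of 23 AP-1 and immediate early factors passed. Of them 4 were above all vehicle libraries and none below, where 9.9% and 8.46% of all genes lay. The median was 0.29. It was 0.13 without vehicle replicate 3, and 0.08, 0.17 and 0.45 without replicates 1, 2 and 3 at 4 µM. MAFF, a small MAF factor, was at 15.6, 13.7 and 16.8 FPKM in vehicle and at 34.9, 22.3 and 32.9 FPKM at 4 µM (0.9 ± 0.18 SE, limma adjusted p = 0.264). IER2 was at 0, 0 and 21 FPKM and then at 25.4, 22 and 24.5 FPKM, with a consensus exon difference of 0.1. MYC, the growth factor-induced regulator, was at 11.1, 24.2 and 20.4 FPKM and then at 36.9, 39.7 and 19.7 FPKM, with overlapping groups (a difference of 0.76, or 0.45 without vehicle replicate 1).

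SAT1, the enzyme that starts polyamine breakdown, came close to the threshold. It was at 61.4, 66.5 and 66.9 FPKM in vehicle and at 205, 158 and 144 FPKM at 4 µM, well apart (1.35 ± 0.18 SE, limma adjusted p = 0.0732, and 0.153 with the consensus exon value). With only the 6 libraries at 0 and 4 µM in the fit its adjusted p was 0.11, and 0.0611 to 0.22 with 1 library left out. Of the same list, SAT2, its paralog, had a difference of 0.43, and ODC1, the first enzyme of polyamine synthesis, one of -0.59, or -0.39 without vehicle replicate 1 (36.2, 24.8 and 21.6 FPKM, then 17.3, 18.9 and 16.3 FPKM). Over the 12 polyamine genes tested the median was -0.02 (-0.08 to 0.04 with 1 library left out), with 3 above all vehicle libraries and 2 below. In the list of sphingolipid enzymes 7 of 26 genes were above all vehicle libraries and 2 below. Both lists are read beside the 9.9% and 8.46% of all genes. SPHK2, listed at 0 in vehicle, is 1 of the 7. The median was 0.02 (-0.01 to 0.07 with 1 library left out). CERS1, a ceramide synthase, was at 16.5, 15.3 and 18.5 FPKM in vehicle and at 27.2, 27.5 and 27 FPKM at 4 µM (0.67 ± 0.17 SE, adjusted p = 0.273), and SMPD2, a sphingomyelinase, had a difference of 0.49.

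Over 32 ATF4 targets the median was 0.23, with 7 above all vehicle libraries and none below, over 35 glycolysis and hypoxia genes 0.24, with 8 above and none below, and over 40 lysosomal genes 0.21, with 7 above and 1 below. These counts are read beside the 9.9% and 8.46% of all genes, and no gene of the 3 lists passed. Without vehicle replicate 1 the median of the ATF4 targets was 0.35 with 16 above, and that of the lysosomal genes 0.29 with 14 above. Over all genes 2061 of 12168 were then above. The ATF4 median was 0.09 without vehicle replicate 3 and 0.03 without replicate 1 at 4 µM, and the glycolysis median 0.15 without replicate 2 at 4 µM. The leading ATF4 targets were SLC7A5 and SLC3A2, the chains of an amino acid transporter, with differences of 0.65 and 0.48, and NUPR1, a stress regulator, at 2.67, 0 and 1.56 FPKM and then at 17.6, 9.6 and 2.95 FPKM. HK2, the first kinase of glycolysis, was at 44.8, 54.5 and 52.2 FPKM and then at 109, 55.3 and 113 FPKM, and PFKM and MXI1 had differences of 0.36 and 0.47. Of the lysosomal genes, NEU1, a sialidase, was at 96, 121 and 114 FPKM and then at 163, 244 and 157 FPKM (0.74, limma adjusted p = 0.283). With the consensus exon value the difference of NEU1 was 0.33 (adjusted p = 0.43), with a treated library inside the vehicle range. ATP6AP1 and PSAP had differences of 0.39 and 0.38. Ribosomal protein, proteasome and respiratory chain lists had medians of 0.04, 0.01 and 0.07, with ranges of 0.01 to 0.24, -0.09 to 0.11 and 0.02 to 0.19 with 1 library left out. The highest of each was without vehicle replicate 1.

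**Figure D5:**
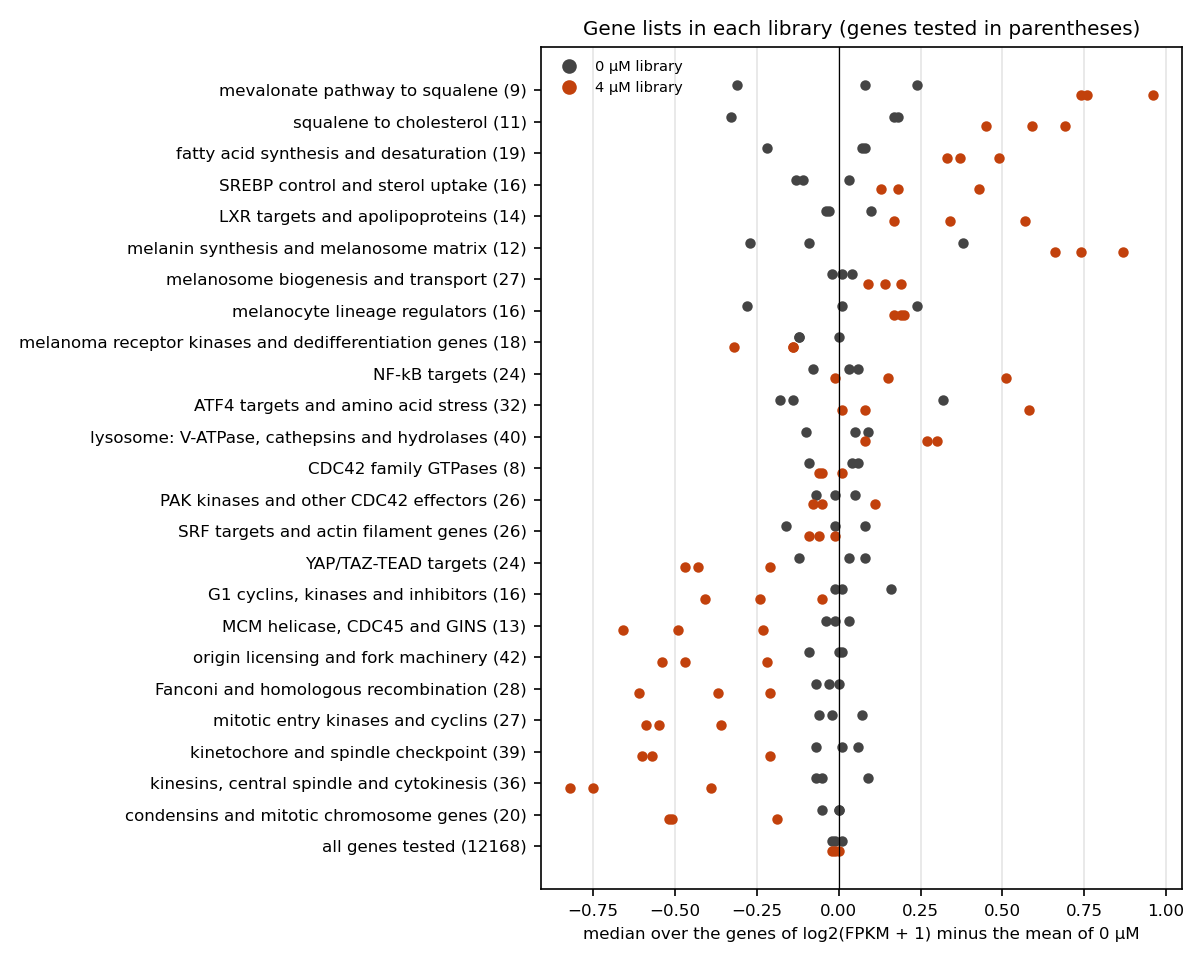
Median over the tested genes of each list of log2(FPKM + 1) minus the vehicle mean of the gene (horizontal axis), for 24 lists and all genes tested (vertical axis, number of genes in parentheses). Each point is 1 library. The sterol and melanin lists lie to the right at 4 µM, the division and replication lists to the left, and all genes tested lie within 0.02 of 0.

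Between the doses, 3 of 12168 genes passed at 6 against 4 µM (0.0247%): TMEM198B and SPTAN1 rose and DHRS13 fell. SPTAN1, a spectrin gene, was at 21.6, 22.1 and 23.1 FPKM at 4 µM and at 65.1, 55.5 and 51.1 FPKM at 6 µM (limma adjusted p = 0.0212), but the consensus exon value gave a difference of -0.32. DHRS13, a dehydrogenase gene, was at 11.3, 14 and 11.7 FPKM and then at 0 in all 3 libraries (adjusted p = 8.58e-05), with a consensus exon difference of 0.10. The median step from 4 to 6 µM was 0.03 up to squalene and 0.21 beyond it, 0.02 for melanin genes, -0.39 for kinesin and cytokinesis genes and -0.50 for MCM, CDC45 and GINS genes, against -0.03 for all genes. None of the members of these lists passed the test of that step.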

How the data were processed

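The authors deposited 1 Cufflinks assembly for each library, with transcript positions and an FPKM for each transcript. The tools, per the submitters' processing notes and with no role stated, include Cufflinks 2.2.1, TopHat2 2.1, Bowtie2 2.2.7, Trimmomatic, SAMtools 1.9 and R 4.0.3. The builds named there are GRCh37 and hg19, whereas 98% of the 1693002 assembled introns lie at GENCODE positions of GRCh38 and 0.726% at those of GRCh37. No source used here says whether the libraries kept strand, so reads of overlapping genes on opposite strands cannot be told apart.

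Spliced transcripts took the name of the gene whose GRCh38 introns (GENCODE release 44, symbols of RefSeq) they share on the same strand, and 96.2% of 193769 received one. FPKM was summed by gene. The main test was limma 3.58.1 (R 4.3.3) on log2(FPKM + 1) over all 9 libraries, with a trended variance, genes of at least 1 FPKM on average and Benjamini-Hochberg adjustment at 0.05. The design had assumed gene-level values, so the naming was added once the files were seen. The script was tested on simulated data. FPKM holds no read counts, so no count test was run, and the + 1 understates changes of low genes.

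The text names the genes past the threshold, the 3 with the smallest p in each list it describes (not in lists whose counts are near those of all genes, such as proteasome and respiratory chain genes, nor in the marker lists), a set fixed by name (such as CDC42, MITF and SREBF2), and the other sterol synthesis genes, which were added after their values were seen. A few genes are not reported here and were left out of the sterol lists after their values were seen, for a reason unrelated to those values. The members and the 55 lists were chosen with earlier results of these data known. The alternatives are another pseudocount, scaling, filter, set of libraries, replicate block or exon value, and each library left out. The consensus exon value on the gene's own strand and FPKM times length were chosen after seeing the data.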

Additional observations from a re-analysis of the deposited data

How the results depend on the processing

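The count of 8 genes at 4 µM against vehicle became 5 with a mean of at least 5 FPKM and 3 with 0 treated as missing, where genes listed at 0 in 1 group could not be tested. Replicate numbers did not pair the libraries: deviations of same-numbered libraries correlated at -0.01, 0.01 and 0.02. The replicate block left 2 genes, SPHK2 and POFUT4 (TNFRSF14 had an adjusted p of 0.1), and 5 with the consensus exon value. With 1 library left out the count ran from 4 to 23, and with the consensus exon value from 5 to 20. TPM gave 8, all higher. The 3 genes at 6 against 4 µM became 5 with no filter, 0 with 0 treated as missing, 6 with the consensus exon value on the own strand, 1 with the replicate block, 0 with the block and the consensus exon value, and ran from 2 to 12 and, with the consensus exon value, from 0 to 8 with 1 library left out. The unadjusted p was under 0.05 for 559 genes in that contrast.

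Differences that turned direction, from 4 µM minus vehicle, were POFUT4 with the consensus exon value on either strand or its own, with or without the block (-1.0), NEK6 for FPKM times length (-0.98), TM7SF2 (0.55 with the consensus exon value in its 3 forms, 0.24 with TPM, 1.23 for FPKM times length), LBR with TPM (0.11), SC5D (0.15 with TPM, 0.32 for FPKM times length), CDKN1A (0.00 with a pseudocount of 5, 0.35 with TPM), RHOJ (0.25 with the consensus exon value, 0.22 with TPM, 0.21 for FPKM times length), AMOTL1 for FPKM times length (0.03), TUBB6 (0.42 with the consensus exon value in its 3 forms, 0.39 for FPKM times length), TUBB4B (0.15 with the consensus exon value on the own strand, 0.20 for FPKM times length) and, with TPM, CDC42 (0.28), RHOC (0.10), PAK2 (0.18), PAK4 (0.32) and RPS27L (0.02). From 6 minus 4 µM they were DHRS13 (0.10 with the consensus exon value) and SPTAN1 (-0.32 with it, -0.31 for FPKM times length). With 1 library left out, over both the summed and the consensus exon value, the differences ran from -1.21 to 3.34 for POFUT4, -0.27 to 0.62 for TM7SF2, -0.58 to 0.39 for SC5D, -0.06 to 0.54 for SREBF2, -0.07 to 0.04 for CDKN1A, -0.08 to 0.44 for MITF, -0.6 to 0.57 for RHOJ, -0.03 to 0.40 for RND3, -0.09 to 0.21 for RHOQ, -0.47 to 0.13 for PAK2, -0.08 to 0.07 for PAK4, -0.53 to 0.24 for AMOTL1, -1.37 to 0.81 for TUBB6, -3.78 to 0.27 for DHRS13 and -0.46 to 1.39 for SPTAN1. Those of POFUT4 and DHRS13, at 0 in 1 group, depend on the added 1. Counting only transcripts of at least 1 FPKM, treated libraries held 233 more transcripts and 0.00326 more per named gene. The cause was not tested. Depth in reads is unknown, so genes listed at 0 may lie below what was assembled.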

Other observations

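No tubulin isotype, BCL2 family, autophagy or ribosomal protein gene passed the main test. TUBB6 was at 84.4, 74.6 and 38 FPKM in vehicle and at 29.5, 29.2 and 31.3 FPKM at 4 µM, but its consensus exon difference was 0.42 beside -1.03 for the summed value. TUBB4B had -1.03 with the summed value, -0.59 without vehicle replicate 1 and 0.2 for FPKM times length. TUBB4A, an isotype abundant in the nervous system, was at 1.42, 2.6 and 2.77 FPKM and then at 4.57, 5.48 and 4.9 FPKM, and kept its direction with all 3 values (0.9, 0.92 and 1.07).

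MCL1, a survival protein of the BCL2 family, was at 84.5, 81.6 and 86 FPKM in vehicle and at 57, 58.5 and 64.4 FPKM at 4 µM (-0.48 ± 0.12 SE, limma adjusted p = 0.273). BCL2A1, a survival protein that MITF controls in melanocytes, was at 16.9, 22.8 and 24.9 FPKM and then at 30.2, 37 and 27.3 FPKM (0.53, adjusted p = 0.432). The groups did not overlap for either. Of 19 BCL2 family genes tested, 1 was above and 1 below all vehicle libraries, BCL2A1 and MCL1. That is no more than the shares of all genes (9.9% and 8.46%). The list median was 0.16 (-0.00 to 0.19 with 1 library left out). BOK, a BAX-like member of the family, was at 5.31, 6.35 and 5.12 FPKM and then at 9.51, 10.8 and 6.07 FPKM, with overlapping groups. WIPI1, a protein of early autophagosomes, was at 28.2, 16 and 23 FPKM and then at 44.3, 47.2 and 44.5 FPKM (1.02 ± 0.21 SE, adjusted p = 0.264), while the list of 34 autophagy genes had a median of 0.06 (-0.06 to 0.08 with 1 library left out). ATG10 and ATG16L1, of the conjugation steps that build autophagosomes, were on the other side. ATG10 was at 4.17, 4.17 and 2.67 FPKM in vehicle and at 0, 0 and 2.29 FPKM at 4 µM, and ATG16L1 had a difference of -0.47.

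RPL30, a protein of the large ribosomal subunit, was at 351, 478 and 1110.4 FPKM in vehicle and at 2063, 2368 and 1996 FPKM at 4 µM (1.9 ± 0.36 SE, limma adjusted p = 0.264). Its difference was 2.01 with the consensus exon value and 0.51 for FPKM times length. RPSA and RPL11 had differences of 0.64 and 0.8, which were 0.14 and 0.42 for FPKM times length. Ribosomal protein genes have near-identical copies elsewhere in the genome, between which the assembly could divide reads. Of 41 ribosomal protein genes 5 were above all vehicle libraries and none below, beside 9.9% and 8.46% of all genes. Without vehicle replicate 1, 15 were above, against 2061 of 12168 genes.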
